A study of Mus musculus with 12 samples.

Results

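The MHC class II pathway genes are the genes whose products build the class II molecule and load it with peptide. The 10 genes described here were chosen by name, namely Cd74, H2-Aa, H2-Ab1, H2-Eb1, H2-Eb2, H2-DMa, H2-DMb1, H2-DMb2, H2-Oa and H2-Ob, out of 41128 genes in the expression table, and each had 1 row. RNA was sequenced in 12 libraries, 4 groups of 3, made from spleen cells of C57BL/6J mice between 6 and 8 weeks of age. Female and male resting B cells were isolated as CD43- cells, and female and male naive T cells as CD4+ CD62L+ cells that were then sorted as CD62Lhi CD44lo CD25-. Neither cell type was treated, and all animals were of 1 strain with no transgene. Replicates were pooled according to the series, and p-values measure the spread between such pools. B cell libraries carry the numbers 1 to 3 and T cell libraries 4 to 6 in each sex.

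Class II molecules are pairs of an alpha and a beta chain that display peptides from the endosomes to CD4+ T cells. In the endoplasmic reticulum new chains bind the invariant chain, which is encoded by Cd74 and blocks the groove until proteases cut it down to a short fragment. H2-DM then removes the fragment and lets other peptides bind, and H2-O holds H2-DM back. In mice, B cells, dendritic cells and macrophages carry class II molecules at rest, while resting T cells are known for lacking them. C57BL/6 mice have no working alpha chain for the E molecule.

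All values are in the unit that the deposited table names adjusted TPM, with a lower and an upper bound. TPM is a length-corrected share of transcripts, and how it was adjusted is not given in the sources used here. The values are not read counts, and the sequencing depth is unknown. The totals over all genes ran from 561020 to 1453940. The 9 B cell markers reported here (among them Cd79a, Ms4a1 and Pax5) summed to between 3182 and 3700 in B cells, and the 8 T cell markers to between 1805 and 2149 in T cells, so both labels matched their markers. In each cell type the markers of the other were low, with a T cell marker sum of 15.1 to 18.98 in B cells and a B cell marker sum of 1.29 to 7.04 in T cells.

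Libraries 6 of the T cells also stood apart in genes outside the class II pathway, and they were singled out after the data were seen. Il2ra, which encodes the CD25 that the sort selected against, was at 4.999 in female T cell 6 and 4.11 in male T cell 6, against 0.158 to 0.340 in the other 4 T cell libraries. Ikzf2 and Foxp3, transcription factors of regulatory T cells, were also highest there, with Ikzf2 at 13.4 and 11.3 against 1.07 to 2.07. The whole list of 5 regulatory or activated T cell markers, which adds Cd69 and Cd44, summed to 94.96 and 120.3 there. In the other T cell libraries it summed to between 51.4 and 63.8. All 9 macrophage or monocyte markers together reached 9.33 in female T cell 6 and 3.01 in male T cell 6, against 1.19 to 1.82 in the rest. The B cell marker sum was likewise 7.04 and 3.34 there against 1.29 to 2.62. Male T cell 6 had a total of 1453940 over all genes, against 799769 to 944351 in the other T cell libraries. With every library rescaled to one total, Cd79a in male T cell 6 was at 0.0765% of its B cell mean. That was under T cell libraries 4 and 5, at 0.0898% to 0.168%. Ms4a1 was above them, at 0.0413% against 0.00891% to 0.0397%. The marker sums were not rescaled, so for male T cell 6 their rise is shown on the deposited scale only. The fold changes of the 10 genes are also given without the T cell libraries 6. Because these are bulk samples, fewer cells of a type and less RNA per cell cannot be told apart.

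Of the 10 genes, all but Cd74 (9 genes) lie on chromosome 17 of GRCm38 (GENCODE M21) within 249 kb. Class II promoters share a block of elements named X and Y boxes, which bind the RFX and NF-Y factors and recruit the transactivator CIITA. RefSeq promoter windows of GRCm38.p6, which reach from 250 bases before to 50 bases after a start site, were found for 8 of the 10 genes. None was found for Cd74 or H2-Ab1. The windows of 7 genes held the letters TGATTGG, a Y box core, preceded by AAC at a distance of 23 to 26 bases. The pair was set after these windows were read, so its presence in the 7 is a description. The stretches are shown because this arrangement is what the 7 windows share, with AAC and TGATTGG in capitals.
H2-Oa, chr17:34092299-34092344, plus strand: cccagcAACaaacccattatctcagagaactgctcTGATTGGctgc
H2-Ob, chr17:34238814-34238856, plus strand: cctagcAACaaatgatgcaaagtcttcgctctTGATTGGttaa
H2-DMb1, chr17:34153093-34153138, plus strand: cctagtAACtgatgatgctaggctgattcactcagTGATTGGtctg
H2-DMb2, chr17:34145122-34145167, plus strand: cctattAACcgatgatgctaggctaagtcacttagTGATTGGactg
H2-Aa, chr17:34287863-34287908, minus strand: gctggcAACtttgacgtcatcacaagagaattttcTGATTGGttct
H2-Eb1, chr17:34305772-34305816, plus strand: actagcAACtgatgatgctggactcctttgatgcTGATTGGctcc
H2-Eb2, chr17:34325539-34325583, plus strand: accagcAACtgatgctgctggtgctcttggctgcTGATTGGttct

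The TGATTGG began between 45 bases (H2-Oa) and 102 bases (H2-Eb2) before the RefSeq start site of its window. These start sites can differ from the GENCODE gene positions given below. The H2-DMb1 stretch, for example, lies inside the GENCODE span of that gene. Counted on both strands, the pair was in 0.46% of all 32851 RefSeq promoter windows and TGATTGG alone in 7.82%. The 2 windows of H2-DMa held neither, which says only that these letters are absent from them.

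Comparing B with T cells asks how far class II expression separates the 2 lymphocytes. All 10 genes were higher in B cells, and for each of them even the lowest deposited lower bound in B cells exceeded every upper bound in T cells. All 10 passed the threshold of an adjusted p under 0.05 (limma, Benjamini-Hochberg), where 31.4% of the 12520 tested genes were called higher in B cells, and none overlapped between the cell types, where 24.2% of tested genes had no overlap and were higher in B cells. Their median log2 fold change was 7.24 beside -0.09 over all tested genes. On the log2(adjusted TPM + 1) scale the 4 largest of all 12520 fold changes were those of Cd74, H2-Aa, H2-Ab1 and H2-Eb1, and the smallest among the 10 genes, that of H2-DMa, ranked 229. With a pseudocount of 0.1 in place of 1 the ranks of the first 4 were 14, 10, 11 and 12. The pseudocount also moved the fold changes of the genes lowest in T cells, with H2-Eb2 at 6.14 for a pseudocount of 1, 8.79 for 0.1 and 3.98 for 5. Together the genes made up 2.77% ± 0.293 (SD, n = 6) of the protein-coding total of B cells. In T cells they made up 0.0107% ± 0.00455 (SD, n = 6), and 0.00862% ± 0.00151 (SD, n = 4) without libraries 6. Without libraries 6 the log2 fold changes were 10.38 for H2-Aa, 9.91 for H2-Ab1, 9.98 for H2-Eb1, 8.48 for H2-DMb2, 6.30 for H2-DMb1 and 6.20 for H2-Eb2, all of them on the side of B cells.

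**Figure D1:**
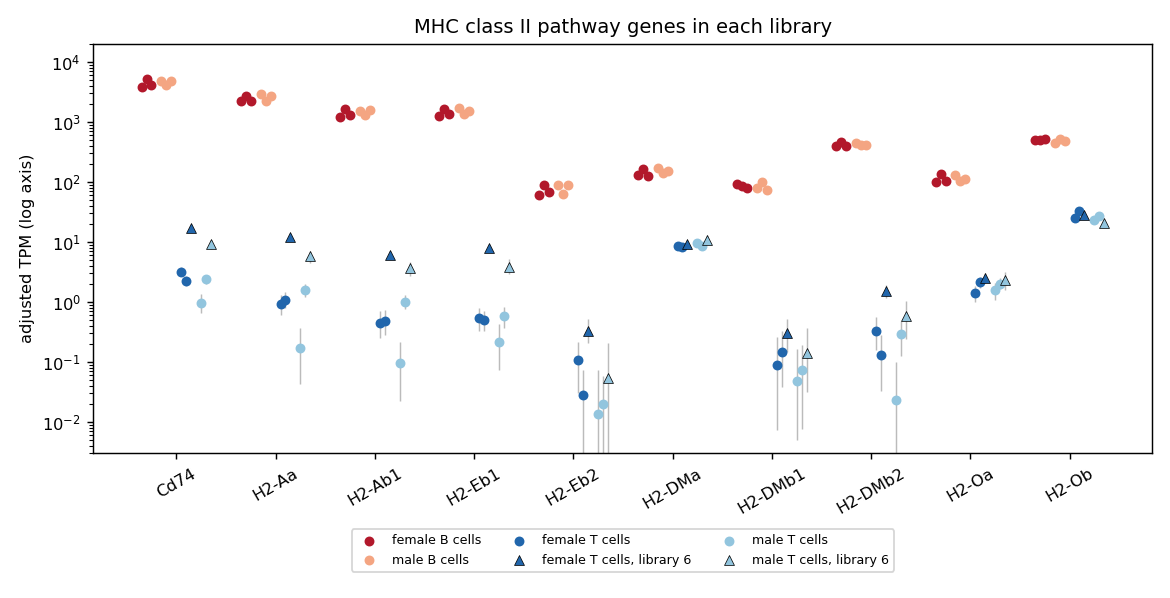
Adjusted TPM (log axis) of the 10 genes in each of the 12 libraries. Points are single libraries, grey bars run from the deposited lower to the upper bound and are cut off below the axis, and triangles are the T cell libraries 6. B cell points lie above all T cell points for every gene, and H2-DMa, H2-Oa and H2-Ob show the narrowest spread among T cell libraries.

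Cd74 (chromosome 18, 60803848 to 60812652, plus strand) had the highest level of the 10 genes in B cells and ranked between 3 and 5 among 21397 protein-coding genes in the B cell libraries. It was at 3849, 5189 and 4080 in female B cells 1 to 3 and at 4828, 4147 and 4786 in male B cells 1 to 3. In T cells it was at 3.20, 2.27 and 16.9 in female libraries 4 to 6 and at 0.963, 2.38 and 9.16 in male libraries 4 to 6. The cell types did not overlap, and within T cells the libraries 6 were the highest in each sex. The log2 fold change was 9.79 (SE 0.43, adjusted p = 2.49e-10, limma), and it was 10.49 without both libraries 6.

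H2-Aa (34282744 to 34287823, minus strand) and H2-Ab1 (34257689 to 34269419, plus strand) encode the alpha and beta chains of the A molecule, the class II molecule that C57BL/6 mice display. H2-Aa was at 2210, 2744 and 2201 in female and 2911, 2208 and 2694 in male B cells. T cells had 0.932, 1.08 and 12.3 in female libraries 4 to 6 and at 0.170, 1.57 and 5.85 in male libraries. Female T cell 6 thus held over 10 times the level of the other female T cell libraries, while no T cell library came near the B cells. H2-Ab1 ranged from 1222 to 1620 in B cells and from 0.0948 to 6.18 in T cells. The log2 fold changes were 9.59 (SE 0.48) for H2-Aa and 9.25 (SE 0.40) for H2-Ab1. The 2 chains kept a steady ratio, with H2-Aa at 1.74 ± 0.0789 (SD, n = 6) times H2-Ab1 in B cells, and Cd74 at 1.80 ± 0.0909 (SD, n = 6) times H2-Aa.

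H2-Eb1 (34305867 to 34316674, plus strand) encodes the beta chain of the E molecule, and its RNA was abundant although its partner chain is lost in this strain. It ranged from 1253 to 1686 in B cells, and its ratio to H2-Ab1 was 1.03 ± 0.0400 (SD, n = 6), so both beta chains were at a similar level per length. Among T cells it was at 0.533, 0.499 and 7.84 in female and 0.219, 0.575 and 3.91 in male libraries 4 to 6. Its log2 fold change was 9.25 (SE 0.43). H2-Ea-ps, the row that the table has for the alpha chain of the E molecule, was at 0.109 to 0.316 in B cells and failed the filter on low values. H2-Eb2 (34325665 to 34341412, plus strand), a second beta chain gene of the E type, was far lower, at 59.9, 90.5 and 68.0 in female and 89.0, 62.2 and 90.1 in male B cells. H2-Eb1 was 19.4 ± 1.81 (SD, n = 6) times as high as H2-Eb2. In T cells H2-Eb2 did not exceed 0.332, and its log2 fold change was 6.14 (SE 0.12).

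The H2-DM subunits fell into 2 patterns in T cells. H2-DMa (34119541 to 34139101, plus strand), the alpha chain, was at 131, 166 and 128 in female and 169, 140 and 153 in male B cells. The T cell values were 8.44, 8.14 and 9.27 in female and 9.59, 8.67 and 10.9 in male libraries 4 to 6. All 6 T cell libraries thus lay within a narrow band, and its log2 fold change was 3.87 (SE 0.08). The beta chain is encoded by H2-DMb1 (34153072 to 34160230, plus strand) and H2-DMb2 (34143307 to 34151555, plus strand). H2-DMb2 was at 402, 472 and 394 in female and 455, 421 and 409 in male B cells, and between 0.0231 and 1.52 in T cells. H2-DMb1 ranged from 73.96 to 100.3 in B cells and from 0.0479 to 0.301 in T cells. The log2 fold changes were 8.23 (SE 0.17) for H2-DMb2 and 6.25 (SE 0.08) for H2-DMb1. Both beta chain genes together had 3.49 ± 0.289 (SD, n = 6) times the level of H2-DMa in B cells but between 0.00740 and 0.196 times its level in the T cell libraries.

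The split between the beta chain genes is less certain than their sum. Of the 31-base words of the H2-DMb1 transcripts 31.4% also occur in H2-DMb2, and the H2-DMb2 row of the table lists a transcript that GENCODE M21 assigns to H2-DMb1. Of the words of H2-DMb2 36.4% occur in another gene and 29.7% in H2-DMb1. Some of its words are thus shared with genes outside the pair, so the sum is not free of shared sequence either. For the other 8 genes at most 1.41% of such words occur in another gene.

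H2-Oa (34092340 to 34095234, plus strand) and H2-Ob (34238903 to 34254414, plus strand) encode the chains of H2-O, the modulator of H2-DM, which is typical of B cells. H2-Oa was at 100.3, 134 and 106 in female and 134, 104 and 114 in male B cells. In T cells it was at 1.41, 2.14 and 2.53 in female and 1.58, 2.03 and 2.30 in male libraries 4 to 6. These T cell levels were low but lay within a narrow range, with a log2 fold change of 5.28 (SE 0.11). H2-Ob was at 508, 499.9 and 531 in female and 449, 515 and 485 in male B cells. In T cells it was at 25.6, 33.2 and 27.9 in female and 22.96, 27.5 and 20.6 in male libraries 4 to 6. H2-Ob thus had the highest T cell level of the 10 genes in every T cell library, and its log2 fold change was 4.21 (SE 0.08). The ratio of H2-Ob to H2-Oa was 4.39 ± 0.730 (SD, n = 6) in B cells. In T cells it was 13.6 ± 3.29 (SD, n = 6), with no overlap between the cell types, and 15.4 ± 2.00 (SD, n = 4) without libraries 6.

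In order of mean level in B cells, Cd74 (4480) came before H2-Aa (2495), then H2-Eb1 (1468) and H2-Ab1 (1430), which overlapped. H2-Ob (498) and H2-DMb2 (426) followed and overlapped too, as did the neighbours H2-DMa (148) and H2-Oa (115), and H2-DMb1 (85.5) and H2-Eb2 (76.6). H2-Oa and H2-DMb1 met at 100.3, and the other neighbours in this order did not overlap. In T cells the order began with H2-Ob (26.3) and H2-DMa (9.16). Cd74, H2-Aa, H2-Ab1 and H2-Eb1 took 87.9% ± 0.954 (SD, n = 6) of the summed 10 genes in B cells and 4.06% to 50.8% in the T cell libraries. H2-DMa, H2-Oa and H2-Ob took 6.84% ± 0.660 (SD, n = 6) of the sum in B cells and 46.6% to 95.7% in the T cell libraries.

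To set the T cell signal on 1 scale, each T cell value was expressed as a percent of the gene's mean over the 6 B cell libraries. H2-DMa was at 5.51% to 7.37%, H2-Ob at 4.13% to 6.67% and H2-Oa at 1.22% to 2.19% over the 6 T cell libraries. These shares exceeded the share of every one of the 9 B cell markers in every T cell library, where the highest marker share was 0.338%. H2-DMa and H2-Oa were called lower in T cells without libraries 6 as well, with log2 fold changes of 3.93 and 5.38, and H2-Ob with 4.15. The exons of the listed H2-DMa and H2-Ob transcripts do not overlap exons of another gene in GENCODE M21. Of the exon bases of H2-Oa 24.4% lie in exons of BC051537 on the other strand, a gene named here after its values were seen, which was at 0.238 to 0.402 in T cells and 0.267 to 0.810 in B cells. The libraries were strand-specific, but whether strand was used in quantification is not given in the sources used here.

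The other 7 genes had only a trace in T cells, and it varied with the library. Their shares of the B cell mean had medians between 0.0378% (H2-Eb1) and 0.136% (H2-DMb1) and did not exceed 0.534%. Female T cell 6 was the highest T cell library for all 7 of them, and male T cell 4 was the lowest for all 7. In female T cell 6 the shares were 0.378% for Cd74, 0.494% for H2-Aa, 0.432% for H2-Ab1 and 0.534% for H2-Eb1. In male T cell 6 they were 0.204%, 0.235%, 0.259% and 0.266% in the same order. In male T cell 4 they were 0.0215%, 0.00680%, 0.00663% and 0.0149%. For 5 genes the lower bound in female T cell 6 exceeded every upper bound in T cell libraries 4 and 5. The same held for 4 genes in male T cell 6. How many of all tested genes share these orders and bounds was not counted. They are therefore not shown to be particular to class II genes. For H2-Eb2 and H2-DMb1 values in T cells were under 1 in every library, and their bounds were wide, as with H2-Eb2 in male T cell 6 at 0.0540 with bounds of 0.00286 and 0.206.

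**Figure D2:**
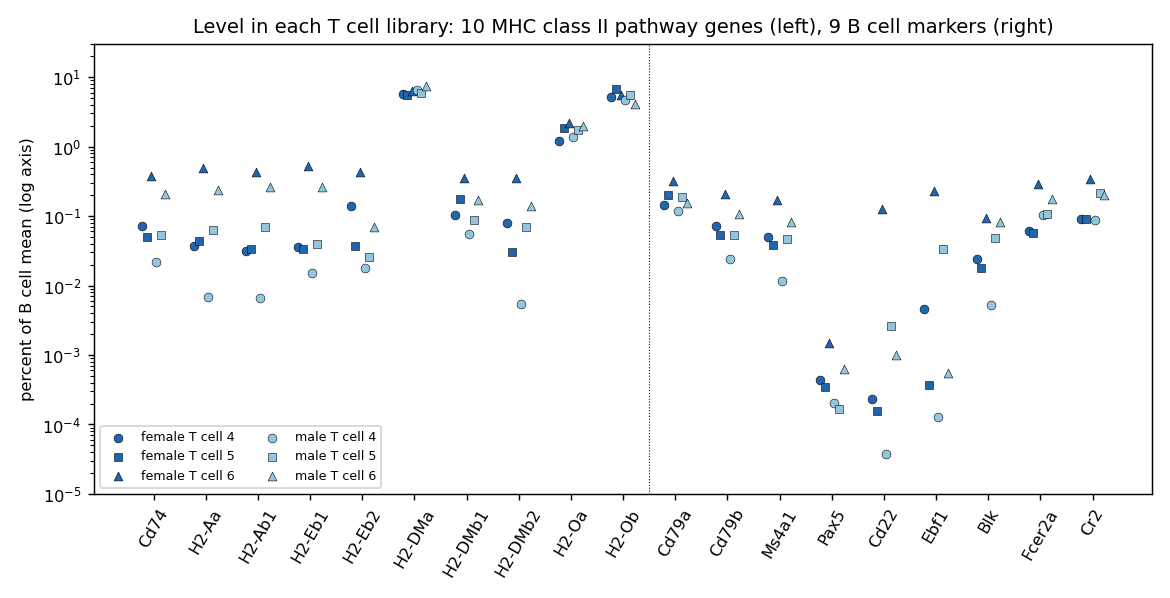
Level in each of the 6 T cell libraries as a percent of the gene's mean over the 6 B cell libraries (log axis), for the 10 class II pathway genes on the left and 9 B cell markers on the right. H2-DMa, H2-Oa and H2-Ob lie between 1.22% and 7.37%, and the other genes lie at or under 0.534%, highest in female T cell 6.

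The trace was set beside the B cell markers measured in the same libraries. In T cell libraries 4 and 5 of both sexes, the marker shares had medians of 0.0117% to 0.0495%, and only H2-DMa, H2-Oa and H2-Ob exceeded all 9 markers. In female T cell 6 the median marker share was 0.205% and the highest 0.338%, and all 10 class II genes exceeded it. In male T cell 6 the median marker share was 0.0834% and the highest 0.204%, and 7 class II genes exceeded it, namely Cd74, H2-Aa, H2-Ab1, H2-Eb1, H2-DMa, H2-Oa and H2-Ob. These counts rest on point estimates. In male T cell 6 the bounds of Cd74 (0.173% to 0.238%) lay within those of the highest marker, Cr2 (0.126% to 0.301%). The bounds of H2-Aa, H2-Ab1 and H2-Eb1 overlapped those of Cr2 as well. The B cell markers were uneven among themselves. Pax5, which defines the B lineage, was at most 0.00148% of its B cell mean in any T cell library. That value was the lowest marker share in female T cell 6, where the next lowest was Blk at 0.0935%. Ebf1 was at 0.229% there and Cr2 was highest at 0.338%. Of the other class II carriers, macrophage or monocyte markers rose mainly in female T cell 6, and dendritic cell markers differed little. Of the 9 macrophage or monocyte markers, 4 were at 1 or more in female T cell 6 and at most 1 in each other T cell library, and Vcam1 was at 1.74 and Lyz2 at 2.52 there. The 9 dendritic cell markers summed to 3.55 and 3.01 in libraries 6 and to between 1.95 and 2.77 in the rest, with Clec9a, Siglech and Clec10a under 0.01 in all 6 T cell libraries. The 3 erythroid markers were highest in male T cell 5 (43.8) rather than in libraries 6, and the 4 plasma cell markers ranged from 26.7 to 33.3 over all T cell libraries. The part of these cells in the trace was not tested.

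The sexes were compared within each cell type. None of the 10 genes was called between female and male B cells, where 0.144% of the tested genes were, and none between female and male T cells, where 0.104% were (limma). At an unadjusted p under 0.05 (limma) the count was 0 of 10 genes for B cells, beside 373 of all 12520 tested genes. For T cells it was 1 of 10 genes, beside 319 of all 12520. The sexes overlapped for all 10 genes in both cell types, while 7.20% of tested genes in B cells and 8.49% in T cells had no overlap. In B cells the log2 fold changes of females against males ran from -0.14 to 0.09. Fitted on B cells alone, the narrowest interval of the 10 genes was that of H2-Ob, -0.13 to 0.31, and the widest that of Cd74, -1.09 to 0.93, so sex differences within these intervals could not be detected. The 1 such gene in T cells was H2-Ob, whose mean was 28.9 ± 3.88 (SD, n = 3) over the female libraries. Over the male libraries it was 23.7 ± 3.54 (SD, n = 3). Its log2 fold change of 0.28 had a 95% interval of 0.03 to 0.53 and an adjusted p of 0.99997 (limma), and female and male libraries overlapped. Fitted on T cells alone its interval was -0.06 to 0.62. In that fit 0 of 10 genes had an unadjusted p under 0.05 (limma), beside 454 of all 12520. T cell libraries of the same number deviated together, and within these pairs H2-Ob was higher in the female library in 3 of 3. H2-Eb2 and H2-DMb1 were also higher in the female library in 3 of 3 pairs, and H2-DMa in 0 of 3. The values of H2-Eb2 and H2-DMb1 are near the floor. In pair 5, H2-Eb2 had bounds of 0.00295 and 0.0731 in the female library and of 0.00158 and 0.0597 in the male. The share of all tested genes with 1 direction in every pair was not computed. With the number as a block the interval for H2-Ob was 0.09 to 0.47 and its adjusted p 0.99993 (limma), so the block did not change the call. In that fit Cd74 also had an interval above 0, of 0.13 to 1.11, with the same adjusted p (limma). Cd74 was higher in the female library in 2 of 3 pairs. The unadjusted p was 0.0094 for H2-Ob and 0.019 for Cd74 (limma), and above 0.05 for the other members. Over all 12520 tested genes, 417 had an unadjusted p under 0.05 in that fit. The difference between the sex effects of B and T cells was called for none of the 10 genes and for 0% of all tested genes (0 of 12520 with limma, of which 295 had an unadjusted p under 0.05).

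Libraries of B cells differed among themselves in a shared way. Female B cell 2, male B cell 1 and male B cell 3 were the 3 highest B cell libraries for 7 of the 10 genes, and H2-DMb1, H2-DMb2 and H2-Ob were the exceptions. The share of all tested genes with these 3 libraries highest was not computed. The order is therefore not shown to be particular to class II genes. For H2-Ob the order was the opposite, with female B cells 1 and 3 and male B cell 2 as the 3 highest. As a result the ratio of H2-Ob to Cd74 ran from 0.0931 to 0.132 in B cells, while that of H2-DMa to Cd74 was nearly constant at 0.0330 ± 0.00139 (SD, n = 6). Other lists moved with the same 3 libraries. The B cell marker sum was 3630, 3700 and 3484 in female B cell 2, male B cell 1 and male B cell 3 and between 3182 and 3236 in the others. The erythroid marker sum was 39.9, 198 and 98.2 in these 3 and at most 35.1 in the others. The macrophage, dendritic and plasma cell sums did not separate these 3 libraries from the rest. The part of these markers in the order was not tested.

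The 9 genes on chromosome 17 are interleaved with genes of other pathways. Between H2-DMb1 and H2-Ob lie Psmb9, Tap1, Psmb8 and Tap2, which encode immunoproteasome subunits and the peptide transporter of the class I pathway. Their mean B cell levels were 57.04, 100.3, 141 and 43.9 and their mean T cell levels 68.9, 108.1, 179 and 66.1. The excess of B over T cells seen in the class II genes was thus not shared by these 4 neighbours. Over the 7 class I pathway genes of the list, which adds H2-K1, H2-D1 and B2m, 6 were called higher in T cells and 0 higher in B cells, with a median log2 fold change of -0.34. Over all tested genes, 41.6% were called higher in T cells and 31.4% higher in B cells, with a median of -0.09. That direction depended on the scaling, since 4 of 7 were called towards T cells with median-ratio scaling and 0 of 7 were called either way once the libraries were scaled to one total of 1000000. The other neighbours, 3 in number, were chosen after their values were seen. Brd2, a chromatin reader beside H2-DMa, was at 119 ± 13.7 (SD, n = 6) in B cells. Its T cell level was 109 ± 5.56 (SD, n = 6), and it was not called. Gm20513, on the strand opposite H2-Eb1 and overlapping its start, was at 5.79 ± 1.16 (SD, n = 6) in B cells and reached only 0.0762 among T cell libraries. Btnl2, beyond H2-Eb2, had a B cell level of 2.54 ± 0.391 (SD, n = 6) and reached 0.0721 in T cells.

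**Figure D3:**
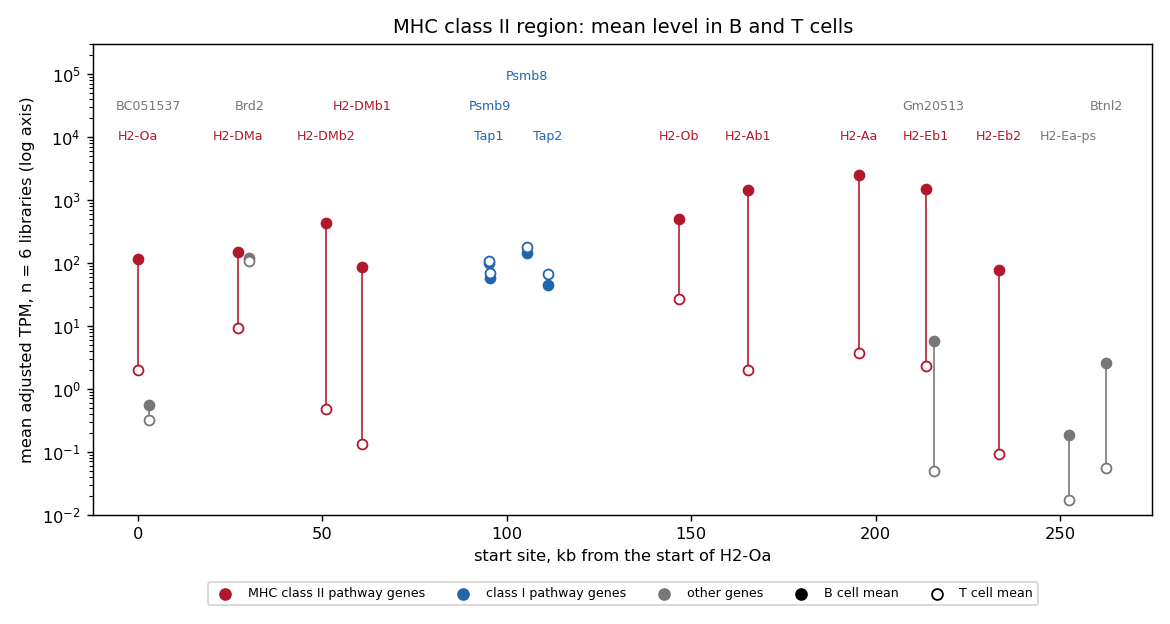
Mean adjusted TPM (log axis, n = 6 libraries per cell type) of genes in the class II region against the distance of their annotated start from that of H2-Oa in kb. Filled circles are B cells, open circles are T cells, and a line joins the means of a gene. The means of the 4 class I pathway genes near 100 kb in B and T cells lie closer together than those of any class II gene, while each class II gene is higher in B cells.

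The other genes of the pathway were taken as a list of 26 genes in the table, of which 23 passed the filter on low values. The B cell level was higher for 12 of these and the T cell level for 8, and 3 were not called. Over all tested genes, 31.4% were called towards B cells and 41.6% towards T cells. The list's median log2 fold change was 0.60 beside -0.09 over all tested genes. After scaling each library to one total of 1000000 the list split into 14 genes towards B cells and 3 towards T cells, so the smaller changes have a direction only relative to the scaling.

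Among the transactivators and promoter factors, 3 of 8 were called towards B cells and 3 towards T cells. Ciita, which encodes the master transactivator of class II genes, was at 112 ± 6.51 (SD, n = 6) in B cells and had a log2 fold change of 6.50 (SE 0.09). Its T cell values followed those of the trace genes, with 0.657 in female T cell 6, 0.312 in male T cell 6 and 0.0694 in male T cell 4. Rfx5, a subunit of the RFX complex, was at 36.4 ± 2.26 (SD, n = 6) in B cells. It was at 9.22 ± 0.634 (SD, n = 6) in T cells, with a log2 fold change of 1.87 (SE 0.06). Unlike Ciita, Rfx5 was thus present in T cells at an even level. Rfxank, another subunit of that complex, was at 7.21 and 7.23 in B and T cells and was not called.

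Among the 9 antigen processing genes, 5 were called towards B cells and 3 towards T cells. Ctsh, a cathepsin, had the largest fold change of this group (7.44, SE 0.07), from 182 ± 11.7 (SD, n = 6) in B cells to at most 0.305 in T cells. Ctss, which encodes the cathepsin that cuts the invariant chain in B cells, was at 406 ± 50.4 (SD, n = 6) in B cells. It was also abundant in T cells, at 159 ± 17.4 (SD, n = 6), with a log2 fold change of 1.35 (SE 0.10). Ifi30, a reductase of lysosomal disulphides, had a log2 fold change of 3.50 (SE 0.09), and Ctsz and Lgmn had 2.90 (SE 0.09) and 2.39 (SE 0.10). In the other direction, Ctsd had a log2 fold change of -2.35 (SE 0.09) and Ctsl, the cathepsin that cuts the invariant chain in thymic epithelium, one of -0.96 (SE 0.11).

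Of the 6 tested genes of surface turnover and trafficking, 4 were called towards B cells and 2 towards T cells. March1, a ubiquitin ligase that removes class II molecules from the surface, was at 156 ± 12.1 (SD, n = 6) in B cells and did not exceed 0.567 among T cell libraries, with a log2 fold change of 7.09 (SE 0.10). Cd83, which opposes that ligase, had a log2 fold change of 6.13 (SE 0.18), from a B cell level of 102 ± 15.0 (SD, n = 6) to T cell values of up to 1.23. Both were highest among T cells in female T cell 6 and second in male T cell 6. Of the tetraspanins, Cd81 was higher in B cells (2.87, SE 0.06) and Cd9 higher in T cells (-1.68, SE 0.13).

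**Figure D4:**
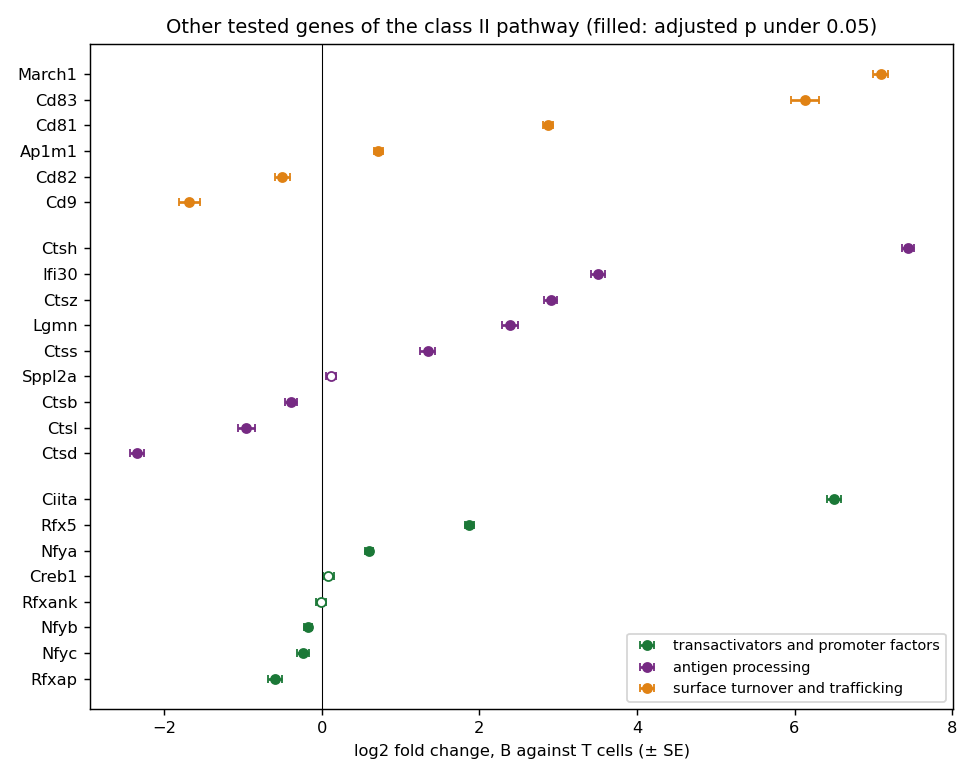
Log2 fold change (limma, B against T cells, bars are the SE) of the 23 tested genes of the pathway list, grouped by role. Filled points have an adjusted p under 0.05, and Ctsh, March1, Ciita and Cd83 lie above 6.

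The genes whose pattern over all 12 libraries was most like the mean of the 10 genes, by Pearson's r of log2(adjusted TPM + 1), were Ccdc50, Sdc4, Cxcr5, Lyn and Myo1e, with r of 0.9991 to 0.9994. With 12 points in 2 clusters such values are common, since 618 of 12510 genes exceeded 0.99. Over the 6 T cell libraries alone, the genes most like the summed class II signal included Zscan26, B3gat2, Rbm26 and Lyn, with r of 0.994 to 0.995, and 96 of 11501 genes exceeded 0.95. The points share their libraries and scaling, and these values are descriptions without a test. Lyn, a Src family kinase of B cells, was in both sets, at 202 in B cells and 0.0218 to 1.08 in T cells.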

How the data were processed

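RNA was sequenced from 6 B cell and 6 T cell libraries. Per the labels, ribosomal RNA was removed with Ribo-Zero Gold and strand-specific TruSeq libraries were made with ERCC spike-ins, which were not analysed here. Some label fields name genomic DNA, and the values were treated as RNA. The submitters' processing notes name mm10, Trim Galore, FastQC and STAR. The quantifier, the adjustment and the level of the bounds are not given in the sources used here. The table deposited by the authors holds a signal per gene and library, called adjusted TPM, with a lower and an upper bound. Depth is unknown, so precision was read from the bounds.

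Genes with at least 1 adjusted TPM in at least 3 libraries (12520 genes, all 10 members) were tested on log2(adjusted TPM + 1) with limma (version 3.58.1, run under R 4.3.3), fitting 1 mean for each group over all 12 libraries, with a mean-variance trend and Benjamini-Hochberg adjustment over all 12520 genes. Fold changes on this scale understate the change of low genes. The test was tested on simulated data. Python 3.11.15, numpy 2.4.6, pandas 2.3.3 and matplotlib 3.10.9 were used for the rest.

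The members and lists were chosen with earlier results of these data known. Named genes are the members, the pathway and class I lists and the 5 most alike genes of each profile. A gene of the B cell marker list and one of the most alike genes are not reported here. Marker lists cover B, T, dendritic, macrophage, plasma, regulatory or activated T and erythroid cells. T cell libraries of the same number deviated together (r of 0.721, 0.548 and 0.521 for numbers 4, 5 and 6), which is where their pairing comes from. Alternatives were other pseudocounts, filters and scalings, a replicate block, 1 cell type alone and left-out libraries.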

Additional observations from a re-analysis of the deposited data

Results flagged for a closer look

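The highest and the lowest library were compared with the rest of their cell type for each of the 10 genes, in 20 sets of 6 libraries, by the gap to the nearest library over the whole range. H2-Eb2 in female T cell 6, at 0.332, lay further from the other T cell libraries than Dixon's critical value of 0.625 allows, with a gap of 0.704 of the range. For normally distributed values chance alone flags about 1 in 20 sets, and 20 sets were compared. The gaps were taken on adjusted TPM and not on the log2 scale of the other tests. The T cell values of H2-Eb2 are near the floor, and the comparison was not repeated on the log2 scale. The deposited bounds of this value were 0.208 and 0.514. Cd74 in the same library had a gap of 0.486 of the range and was under the critical value.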

How the results depend on the processing

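All 10 genes remained called higher in B cells under each of the 19 alternatives, with log2 fold changes of 8.85 to 10.49 for Cd74, 6.30 to 9.98 for H2-DMb2, 4.13 to 8.58 for H2-DMb1, 3.98 to 8.79 for H2-Eb2 and 3.43 to 4.25 for H2-DMa, the widest ranges between pseudocounts of 5 and 0.1, and none was called between the sexes under any. With the replicate block, in which B cell numbers do not pair the libraries (r of -0.169, -0.038 and -0.337), 9312 genes were called between the cell types, 14 (B cells) and 10 (T cells) between the sexes, and the block changed no call of the 10 genes. Over all genes, 9134, 18, 13 and 0 genes were called for B against T cells, sex in B cells, sex in T cells and the difference of the sex effects. Without the filter on low values these became 24591, 10985, 10607 and 11201. Of the calls between the sexes without it, 10820 (B cells) and 10463 (T cells) were genes that the filter removes. With the libraries scaled to one total of 1000000 the sex counts were 44, 26 and 20 (in B cells, in T cells and their difference), and the share of cell type calls higher in B cells was 71.6% against 43.0%, with a median log2 fold change of 0.26. A pseudocount of 0.1 gave 24 in T cells and 1 for the difference, and a fit of B cells alone gave 5. Leaving out 1 library gave 11 to 18 in B cells, 7 to 14 in T cells and 0 to 1 for the difference, lowest without female B cell 3 in B cells and without female T cells 5 or 6 in T cells (7 each; 8 without female T cell 4). Without both T cell libraries 6, chosen after seeing the data, the counts were 7 in T cells and 1 for the difference. The cause was not tested.

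The sex effect on Cd74 changed sign without female B cell 1 (0.0079 on the log2 scale) and, in T cells, without female T cell 6 (-0.14). Leaving out 1 library gave it a range of -0.21 to 0.0079 in B cells and of -0.14 to 1.28 in T cells, highest without male T cell 6. Rescaling moved the share of Cd74 in male T cell 6 to 0.101%, and the median T cell shares of H2-DMa, H2-Oa and H2-Ob to 4.75%, 1.26% and 4.35%. At the deposited upper bound the medians were 6.75% for H2-DMa, 2.23% for H2-Oa and 0.346% for H2-DMb1, and at the lower bound 1.40% for H2-Oa and 0.0226% for H2-DMb1. Values in T cells under 0.1 have wide bounds, and with 3 libraries per sex only large sex differences could pass.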
